A study of Mus musculus with 4 samples.

Results

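The matricellular and matrix genes *Fn1*, *Thbs1*, *Tgfbi*, *Ecm1*, *Vcan* and *Sparc* are described here across the immune cells of the mouse brain and dura mater. The 6 genes were chosen by name from 19491 genes listed in any of 4 single-cell libraries, and all 6 are listed in every library. FACS-sorted CD45+ hematopoietic cells came from adult male C57BL/6J mice, 8 to 10 weeks old, with no allele or agent named in the labels. Brain S3 and dura mater S3 are the controls (labelled CT, taken as sham-operated at day 3). Brain D3 and dura mater D3 were collected at day 3 after photothrombotic injury (PTI). In PTI, light-activated clotting injures blood vessels of the dura mater, the pia mater and the brain. Each condition has 1 library, and the sources used here do not give the number of mice pooled in it. No difference could therefore be set against the spread between mice, no test was made, and all intervals are exact 95% intervals that cover counting error only.

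Matricellular proteins are secreted into the extracellular matrix and tune how cells attach, migrate and receive growth factors, more than they bear mechanical load. Monocytes and macrophages that enter injured tissue lay down such a provisional matrix together with the plasma proteins that leak from damaged vessels. *Fn1* encodes fibronectin, which integrins bind and on which other matrix proteins assemble. *Vcan* encodes versican, a large chondroitin sulfate proteoglycan that binds hyaluronan. *Thbs1* encodes thrombospondin 1, a ligand of CD36 and CD47 that can activate latent TGF-β and restrains new vessels. *Tgfbi* encodes a TGF-β-induced protein that binds integrins and collagens, *Ecm1* a secreted glycoprotein that binds other matrix components, and *Sparc* a collagen-binding counter-adhesive protein.

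Cells were sorted into classes by marker genes, none of which is one of the 6 genes, and a class carries the name of its marker list, so that "microglia" stands for microglia-like cells. Kept cells numbered 3594 and 4430 in the brain (S3 and D3) and 3419 and 2602 in the dura mater, and between 85.4% and 91.5% of them took a class. Ly6C hi monocytes numbered 256, 450, 339 and 294 in the same order and border macrophages, the resident macrophages of the meninges and vessels, 145, 213, 404 and 626. Infiltrating macrophages (*Arg1*, *Gpnmb*, *Fabp5* and others) numbered 1053 in brain D3 and between 3 and 8 elsewhere, so they have values in brain D3 alone. The gate also took 23 and 33 cells of dura mater S3 and D3 as microglia, in which the 8 microglial markers summed to 5264 and 5050 CPM, against 16227 in brain S3 microglia and 12251 in brain D3 microglia, and border macrophage markers to 1807 and 1481 CPM against 449 and 327. Median depth was between 8218 and 14183 unique molecular identifiers (UMIs, each counting 1 molecule) per cell, pairs of libraries shared between 3 and 11 cell barcodes, and a level is the summed UMIs of the gene per 1000000 summed UMIs of the class (CPM), to be compared within a gene and not between genes. T cells and B cells gauge free RNA, and "free RNA" below stands for their level. These classes were not alike. In brain S3, 757 T cells held 86 *Ecm1* and 177 *Tgfbi* UMIs, and 494 B cells held 8 and 9. In brain D3, 194 T cells held 349 *Tgfbi* and 127 *Fn1* UMIs, and 75 B cells held 5 and 6. Another 134 lymphocytes, gated as natural killer cells or ILC1, held 6 and 9. The T cell level may thus hold more than free RNA, and what adds to it was not tested. A brain D3 level at or below that of T cells was therefore not shown to be free RNA. Of 258 values (a gene in another class and library of at least 20 cells), 91 had an interval above those of both T and B cells of the same library, 25 of 43 for *Tgfbi*, 23 for *Thbs1*, 18 for *Fn1*, 10 each for *Ecm1* and *Sparc* and 5 for *Vcan*.

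**Figure D1:**
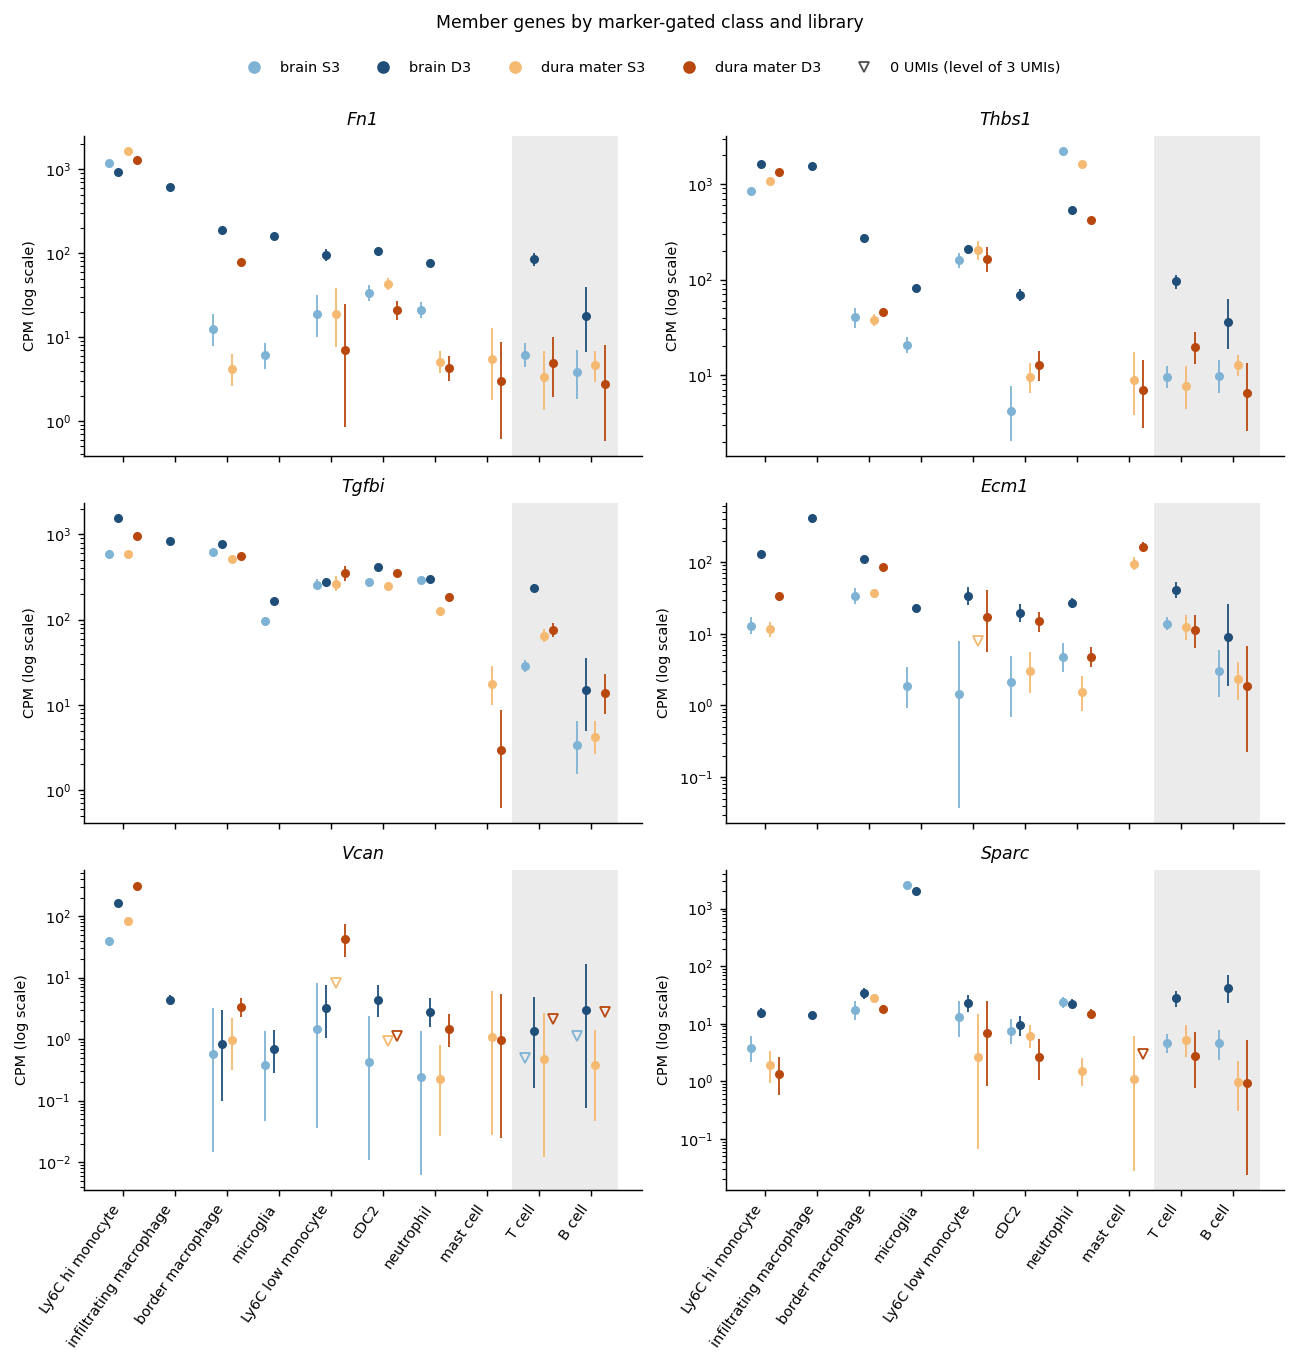
Levels of the 6 genes (CPM, log scale) in marker-gated classes of the 4 libraries, with exact Poisson 95% intervals. Open triangles mark classes at 0 UMIs, drawn at the level of 3 UMIs, and grey marks T and B cells. *Fn1* and *Vcan* stand highest in Ly6C hi monocytes, *Ecm1* in infiltrating macrophages at 412 CPM and *Sparc* in microglia at 2576 and 2042 CPM.

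On the GRCm38 build (GENCODE vM21), *Fn1* (ENSMUSG00000026193) lies on chromosome 1 from 71585520 to 71653200 on the minus strand. *Thbs1* (ENSMUSG00000040152) lies on chromosome 2 from 118111876 to 118127133 on the plus strand, and *Tgfbi* (ENSMUSG00000035493) on chromosome 13 from 56609523 to 56639562 on the plus strand. *Ecm1* (ENSMUSG00000028108) is on chromosome 3 from 95734147 to 95739569, *Vcan* (ENSMUSG00000021614) on chromosome 13 from 89655312 to 89742509 and *Sparc* (ENSMUSG00000018593) on chromosome 11 from 55394500 to 55423183, all on the minus strand. Genes on the opposite strand overlap *Fn1* (*Apol7d*), *Thbs1* (*Gm29233*) and *Vcan* (*Gm16318* and *Gm4117*), and a microRNA gene, *Mir7014*, lies inside *Ecm1*. RefSeq upstream sequences were matched for 4 of the 6 genes, and those of *Ecm1* and *Vcan* are shown because these genes part most between monocytes and infiltrating macrophages. Each window is the 250 bases before the transcription start, written 5′ to 3′ on the gene's strand (GRCm38.p6, minus strand, chr3:95739570-95739819 for *Ecm1* and chr13:89742513-89742762 for *Vcan*), with motif matches in capitals.
Ecm1: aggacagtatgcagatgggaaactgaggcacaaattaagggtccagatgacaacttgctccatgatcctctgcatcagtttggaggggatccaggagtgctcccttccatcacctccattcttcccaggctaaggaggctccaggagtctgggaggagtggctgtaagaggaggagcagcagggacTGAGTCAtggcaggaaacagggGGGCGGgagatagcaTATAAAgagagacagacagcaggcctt
Vcan: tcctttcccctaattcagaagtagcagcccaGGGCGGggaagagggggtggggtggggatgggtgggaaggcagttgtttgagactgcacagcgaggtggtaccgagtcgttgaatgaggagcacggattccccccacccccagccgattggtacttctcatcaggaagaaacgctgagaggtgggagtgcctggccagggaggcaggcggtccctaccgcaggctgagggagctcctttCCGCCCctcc
Capitals in *Ecm1* are an AP-1 site (searched as TGANTCA), a GC box (GGGCGG) and a TATA box (TATAAA), the last 27 bases before the start. Capitals in *Vcan* are 2 GC boxes, 1 on each strand. Both strands were searched, and of 32851 mouse promoters of the same length 6.75% hold the AP-1 letters, 32.7% the GC box and 12.4% the TATA box. A CRE (TGACGTCA, in 1.55% of promoters), an ETS core (GAGGAA, 23.2%) and a C/EBP site (TTGCNNAA, 9.56%) were searched too, and these letters are not in either window. The matches are descriptions of letters and not of bound sites.

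Ly6C hi monocytes carried *Fn1* in every library, and in brain D3 other classes carried it too. Brain S3 monocytes were at 1193 CPM (1160 to 1226) and brain D3 monocytes at 937 (915 to 960). Dura mater S3 monocytes were at 1647 (1614 to 1680) and dura mater D3 monocytes at 1298 (1269 to 1327). The 4 intervals do not overlap, and both D3 libraries were below their S3 library, with log2 ratios of D3 over S3 of −0.35 (−0.40 to −0.29) in the brain and −0.34 (−0.39 to −0.30) in the dura mater. Between 88.0% and 93.5% of the monocytes had a *Fn1* UMI, against at most 10.8% of T cells and 8.00% of B cells at median depths near 14502 to 18295 UMIs in monocytes, 5994 to 7160 in T cells and 3474 to 5622 in B cells. With each cell thinned to 2000 UMIs, the share was between 66.7% and 82.0% in monocytes and at most 4.64% in T and 5.33% in B cells, with 1 monocyte left out as shallower. Infiltrating macrophages of brain D3 were at 622 CPM (612 to 632), and 91.7% of them had a UMI, while 24 endothelial cells that had passed the CD45 sort were at 873 CPM (740 to 1022).

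Monocytes held 86.3% of all *Fn1* UMIs of brain S3 although they were 7.12% of its cells, and 94.3% in dura mater S3 where they were 9.92% of cells. In brain D3 this share was 21.7%, while infiltrating macrophages held 50.3% and were 23.8% of the cells. In dura mater D3 monocytes still held 76.0%. *Vcan* UMIs lay in monocytes in all 4 libraries, at 87.9% (S3) and 82.8% (D3) in the brain and 95.8% (S3) and 91.8% (D3) in the dura mater.

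**Figure D2:**
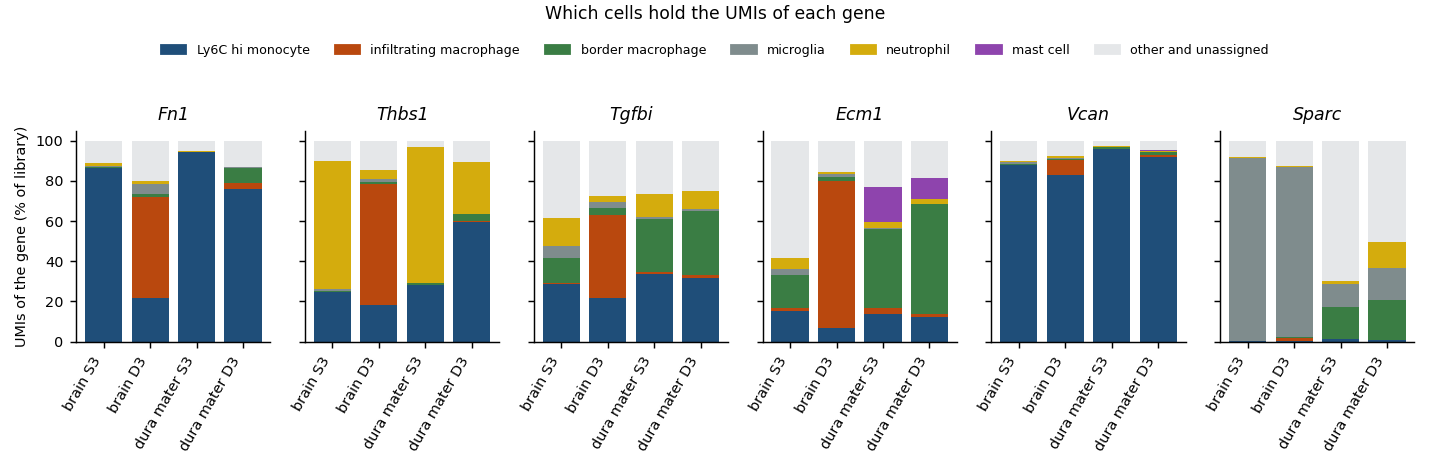
Share of the UMIs of each gene in a library (vertical axis, %) that lay in each class of cells, for the 4 libraries. *Vcan* UMIs lie in Ly6C hi monocytes in every library, *Sparc* UMIs of the brain in microglia, and *Thbs1* UMIs of both S3 libraries mostly in neutrophils (63.6% in brain S3 and 67.4% in dura mater S3).

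*Vcan* was higher in monocytes of both injured tissues. Ly6C hi monocytes were at 39.7 CPM in brain S3 (33.9 to 46.2), 162 in brain D3 (153 to 172), 83.3 in dura mater S3 (76.0 to 91.1) and 311 in dura mater D3 (297 to 326). Both D3 values are above both S3 values, with log2 ratios of 2.03 (1.79 to 2.27) in the brain and 1.90 (1.76 to 2.05) in the dura mater. A *Vcan* UMI was found in 27.0% and 34.8% of monocytes at S3 and in 54.7% and 74.8% at D3 of brain and dura mater, and after thinning in 8.20%, 12.1%, 21.3% and 36.4%. Of the 4 monocyte groups, that of the injured dura mater was highest in *Vcan*, and its median depth was also the highest, at 18295 UMIs. Infiltrating macrophages had little, at 4.38 CPM (3.61 to 5.27), and 0.855% of them kept a UMI after thinning. T cells of brain D3 held 1.34 CPM (0.163 to 4.86) and B cells 3.01 (0.0761 to 16.8). These rest on 2 UMIs and 1 UMI, too few to tell the level of infiltrating macrophages from free RNA.

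Set against Ly6C hi monocytes of the same library, infiltrating macrophages of brain D3 held *Ecm1* at a log2 ratio of 1.67 (1.57 to 1.77) and *Vcan* at −5.21 (−5.50 to −4.93). These 2 of 6 genes were past 2-fold, the threshold used throughout for genes that reached 50 UMIs when the groups were summed. Over all genes of this comparison 20.8% were past 2-fold. *Fn1* was at −0.59 (−0.63 to −0.55), *Tgfbi* at −0.89 (−0.92 to −0.86), *Thbs1* at −0.09 (−0.11 to −0.06) and *Sparc* at −0.09 (−0.40 to 0.23). The 6 genes had a median of −0.34, and all genes that reached 100 UMIs a median of −0.04. After the T and B cell level was subtracted, *Tgfbi* passed 2-fold as well at −1.08, and with classes from graph clusters it was at −0.41.

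The same genes were followed across the range between both classes by ranking brain D3 cells on the infiltrating macrophage score minus the monocyte score, in 5 bins of 314 or 315 cells. The bins include unassigned cells whose 2 leading lists are these, and they are ranges along a score and not cell types. *Vcan* was at 202 CPM in bin 1 (190 to 215), 42.4 in bin 2, 4.27 in bin 3, 2.92 in bin 4 and 1.22 in bin 5. *Fn1* was lower in each bin than in the bin before, from 997 CPM (970 to 1025) to 498 (482 to 513). *Ecm1* went the other way early, from 77.5 CPM (70.1 to 85.6) in bin 1 to 363 (347 to 379) in bin 2, and stayed between 399 and 425 in bins 3 to 5. *Tgfbi* was highest in bin 2 at 1851 CPM (1816 to 1887) and lowest in bin 5 at 614. *Thbs1* had no single direction and ranged from 1345 to 1805 CPM, and *Sparc* stayed between 8.18 and 19.7 CPM. Gated monocytes were all of bin 1, 42.9% of bin 2 and none of bins 3 to 5. Median depth was 14201 UMIs in bin 1 and 25417 in bin 5.

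**Figure D3:**
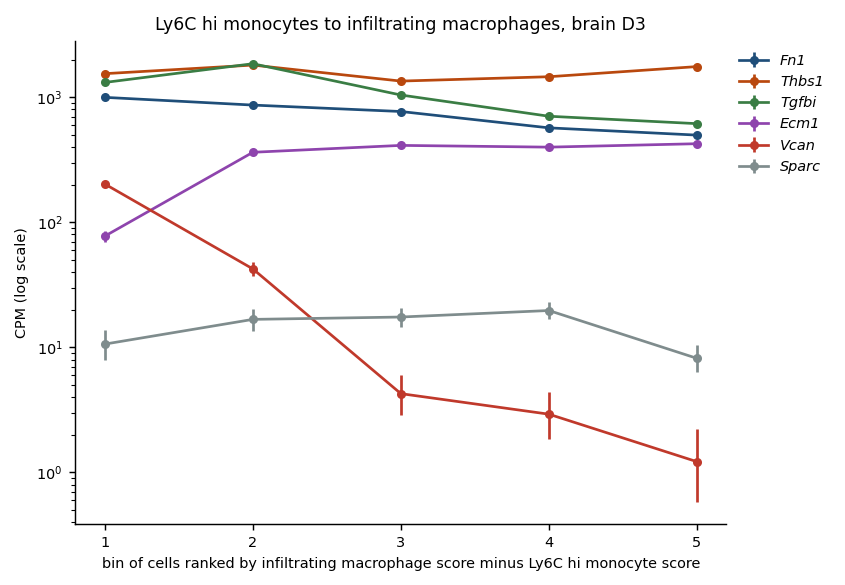
Levels (CPM, log scale) in brain D3 over 5 bins of cells ranked by infiltrating macrophage score minus Ly6C hi monocyte score, with exact Poisson 95% intervals. *Vcan* goes from 202 to 1.22 CPM between the first and the last bin and *Ecm1* steps from 77.5 to 363 CPM between bins 1 and 2, while *Thbs1* stays between 1345 and 1805 CPM.

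Several of the genes were counted in the same single cells, and the level expected from their single shares was not computed. After thinning, 3 of the 6 genes had a UMI in 34.9% of 1053 infiltrating macrophages, 4 in 21.3% and 5 in 1.04%, and none had one in 21 cells. An *Ecm1* UMI was found in 53.6% of the infiltrating macrophages with a *Tgfbi* UMI and in 53.8% of those without one. Of the 599 infiltrating macrophages with a *Fn1* UMI, 87.3% also had a *Thbs1* UMI, against 77.3% of those without one. In brain D3 monocytes these shares were 79.7% and 56.7%. *Ecm1* and *Vcan* went apart in the same monocytes, since 11.8% of the 85 monocytes with an *Ecm1* UMI had a *Vcan* UMI against 23.6% of the rest. These shares compare cells of 1 library at equal depth and are a description.

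*Thbs1* was carried by monocytes, infiltrating macrophages and neutrophils. Neutrophils were at 2201 CPM in brain S3 (2156 to 2247), 540 in brain D3 (520 to 560), 1641 in dura mater S3 (1615 to 1668) and 421 in dura mater D3 (407 to 436). Both injured libraries were below both S3 libraries, with log2 ratios of −2.03 (−2.09 to −1.97) in the brain and −1.96 (−2.02 to −1.91) in the dura mater. The share of neutrophils with a UMI after thinning was 70.9% and 72.4% at S3 and 39.5% and 35.3% at D3. The lower level was found in mature neutrophils (2248 CPM in brain S3 against 700.1 in brain D3, and 2976 in dura mater S3 against 632 in dura mater D3). It was found likewise in immature neutrophils (2069 against 393 CPM, and 977 against 300). The share of neutrophils gated as mature was 419 of 494, 364 of 486, 482 of 816 and 285 of 485 in brain S3, brain D3, dura mater S3 and dura mater D3.

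Immediate early genes, such as *Fos*, *Jun* and *Egr1*, respond within minutes to stimuli that include cell isolation. In neutrophils a list of 12 of them, chosen after the values were seen, summed to 10714 CPM in brain S3, 6146 in brain D3, 6304 in dura mater S3 and 5399 in dura mater D3. The part of that response in the *Thbs1* levels was not tested.

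Neutrophils also held *Tgfbi*, at 295 CPM in brain S3 and 296 in brain D3, a log2 ratio of 0.01 (−0.10 to 0.11), and at 126 in dura mater S3 and 185 in dura mater D3, a ratio of 0.56 (0.45 to 0.67). T and B cells together held *Tgfbi* at 21.1 CPM in brain S3 and 194 in brain D3. With this level subtracted the brain ratio was −1.43, past 2-fold lower, and the dura mater ratio 0.39. Of the 354 UMIs behind the brain D3 level, 349 lay in T cells and 5 in B cells, so mostly a T cell level was subtracted. Whether that level is free RNA was not tested. *Ecm1* had ratios of 2.50 (1.82 to 3.25) in the brain and 1.62 (0.71 to 2.62) in the dura mater at levels under 28 CPM, below T cells of the same library. *Fn1* was at 77.0 CPM in brain D3 neutrophils against 21.0 in brain S3, but not above brain D3 T cells at 85.4. Subtracting the T and B cell level turned its log2 ratio from 1.88 to −1.97. Of the 133 *Fn1* UMIs behind the brain D3 level subtracted, 127 lay in T cells and 6 in B cells. *Sparc* in dura mater neutrophils, 1.55 CPM at S3 and 14.9 at D3, lay in 3.30% of D3 cells. Fibroblast markers summed to 5.42 CPM in these neutrophils at S3 and 59.2 at D3, and without cells that had a fibroblast, endothelial or mural marker UMI its ratio turned from 3.27 to −1.04. In both tissues 3 of the 5 genes with enough UMIs were past 2-fold, against 9.41% of all genes in the brain and 4.52% in the dura mater.

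In monocytes *Thbs1* stood the other way. Ly6C hi monocytes were at 840 CPM in brain S3 (813 to 868), 1625 in brain D3 (1596 to 1655), 1081 in dura mater S3 (1055 to 1108) and 1349 in dura mater D3 (1319 to 1379). Each D3 library was above both S3 libraries, by 0.95 (0.90 to 1.01) on the log2 scale in the brain and by 0.32 (0.27 to 0.37) in the dura mater. The brain ratio lies at the 2-fold line, and centred on the median gene it was 1.02, so whether it counts as past 2-fold depends on the setting. Infiltrating macrophages, at 1532 CPM (1517 to 1548), were close below brain D3 monocytes, and 97.6% of them had a UMI. Neutrophils held 63.6% of the *Thbs1* UMIs of brain S3 and 67.4% of dura mater S3. In dura mater D3 they held 26.0% and monocytes 59.3%, and in brain D3 infiltrating macrophages held 60.2%.

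*Tgfbi* was the most widespread of the 6 genes among phagocytes. Ly6C hi monocytes were at 593 CPM in brain S3 (569 to 616), 1549 in brain D3 (1521 to 1578), 586 in dura mater S3 (567 to 606) and 949 in dura mater D3 (924 to 974). The S3 intervals of brain and dura mater overlap, and both D3 values are higher, with log2 ratios of 1.39 (1.32 to 1.45) in the brain and 0.69 (0.63 to 0.76) in the dura mater. Border macrophages were between 511 and 770 CPM in the 4 libraries, with ratios of 0.30 (0.19 to 0.41) in the brain and 0.12 (0.05 to 0.18) in the dura mater. At least 95.5% of border macrophages and 97.3% of monocytes had a UMI in every library. Classical dendritic cells of the cDC2 type were between 245 and 414 CPM, with ratios of 0.58 (0.44 to 0.72) and 0.53 (0.39 to 0.67). Microglia were at 97.4 CPM in brain S3 and 167 in brain D3, where T cells were at 235 CPM (211 to 261) with their UMIs in 16.5% of cells.

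*Ecm1* was higher at D3 in each phagocyte class compared in which it reached 50 UMIs. In brain microglia (22.8 CPM), brain cDC2 (19.8) and neutrophils of brain and dura mater (27.2 and 4.77), however, D3 levels were below T cells of the library. Ly6C hi monocytes were at 13.1 CPM in brain S3 (9.84 to 17.0), 129 in brain D3 (121 to 138), 11.6 in dura mater S3 (8.99 to 14.7) and 33.4 in dura mater D3 (28.9 to 38.5). The S3 values do not stand above T cells, at 13.9 and 12.4 CPM, while the D3 values stand above the 41.0 and 11.1 CPM of T cells. Log2 ratios were 3.31 (2.92 to 3.73) in the brain and 1.53 (1.12 to 1.95) in the dura mater, and after thinning the latter was 0.65 and no longer past 2-fold. In the same monocytes the 7 infiltrating macrophage markers summed to 638 CPM in brain S3 and 1199 in brain D3, and to 518 and 422 in the dura mater. Border macrophage markers summed to 232 and 428 CPM in the brain monocytes and microglial markers to 230 and 450. The part of such cells in the *Ecm1* levels was not tested. Border macrophages were at 33.8 CPM in brain S3 (25.7 to 43.6), 112 in brain D3 (98.8 to 126), 37.1 in dura mater S3 (32.1 to 42.7) and 86.5 in dura mater D3 (80.8 to 92.4). These 4 values are above T and B cells, the S3 intervals overlap, and both D3 values are higher, with ratios of 1.73 (1.31 to 2.16) and 1.22 (0.99 to 1.45). A UMI was found in 28.3% and 30.2% of border macrophages at S3 and in 44.6% and 52.1% at D3. Infiltrating macrophages held 73.4% of the *Ecm1* UMIs of brain D3, at 412 CPM (404 to 420), and 96.2% of them had a UMI. Outside the phagocytes, mast cells of the dura mater were at 95.6 CPM at S3 (76.6 to 118) and 165 at D3 (141 to 192).

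*Sparc* in the brain lay mostly in microglia. Brain microglia were at 2576 CPM in brain S3 (2533 to 2620) and 2042 in brain D3 (2014 to 2070), a log2 ratio of −0.34 (−0.37 to −0.30), and held 90.9% and 84.4% of the *Sparc* UMIs of these libraries. T cells of the same libraries were at 4.70 and 27.6 CPM and B cells at 4.56 and 42.1, and infiltrating macrophages at 14.5 were below both, so *Sparc* in monocytes and macrophages of brain D3 was not above free RNA. The 24 endothelial cells of brain D3 were at 2025 CPM (1820 to 2247). The 23 and 33 dura mater cells gated as microglia were at 353 CPM (289 to 427) and 354 (299 to 417), with a *Sparc* UMI in 3 and 7 of them. In the dura mater, where there were few *Sparc* UMIs, 46.9% at S3 and 24.2% at D3 lay in 3 and 5 fibroblasts. Dura mater border macrophages held *Sparc* at 27.9 CPM at S3 and 18.4 at D3, against 2.19 and 1.98 in T and B cells together. The filter on cells matters for this gene: 46.1% of the *Sparc* UMIs of brain D3 lay in cells with at least 6000 genes, which were left out, and 13.1% in brain S3. Of the cells left out, 196 gated microglia of brain D3 were at 1099 CPM and 101 gated infiltrating macrophages at 283 CPM.

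Set against border macrophages of brain S3, infiltrating macrophages of brain D3 were higher in *Fn1* (622 against 12.6 CPM, log2 5.63, 5.03 to 6.30), *Thbs1* (1532 against 40.1 CPM, log2 5.26, 4.92 to 5.62) and *Ecm1* (412 against 33.8 CPM, log2 3.61, 3.24 to 4.003). *Tgfbi* differed little, at 835 against 624 CPM, a log2 ratio of 0.42 (0.33 to 0.51), and *Sparc* was at −0.24 (−0.78 to 0.35). *Vcan*, with 112 UMIs against 1, had a ratio of 2.94 (0.43 to 8.25) at levels that could not be told from free RNA. Thus 4 of 6 genes were past 2-fold, all higher, against 29.6% of all genes in either direction. The *Vcan* ratio was under 2-fold with a wider margin of the gate (−0.14) and with 2500 cells drawn per library (0.86). It was also under 2-fold after thinning (0.60) and without cells that had a fibroblast, endothelial or mural marker UMI (−0.11). The median was 3.27 over the 6 genes and −0.23 over all genes that reached 100 UMIs. This comparison changes cell class, injury and depth together (median 23311 against 10545 UMIs per cell), so these cannot be told apart. Against microglia of the same library, all 6 genes were past 2-fold, 5 higher and *Sparc* lower at −7.14 (−7.29 to −6.99), where 23.3% of all genes were. The ratios of the other genes were 1.97 for *Fn1*, 4.24 for *Thbs1*, 2.32 for *Tgfbi*, 4.18 for *Ecm1* and 2.67 (1.58 to 4.01) for *Vcan*. The *Vcan* levels here could not be told from free RNA. Its ratio was 0.69 without a filter on cells, and after thinning it was 1.19 on too few UMIs to count. Under either, 5 of the 6 genes were past 2-fold.

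Within resident cells, *Fn1* was higher at D3 but in a small share of cells. Border macrophages were at 12.6 CPM in brain S3 (7.90 to 19.1), 190 in brain D3 (173 to 208), 4.21 in dura mater S3 (2.64 to 6.37) and 79.1 in dura mater D3 (73.7 to 84.9). The log2 ratios were 3.91 (3.30 to 4.60) and 4.23 (3.63 to 4.92), yet 16.0% and 11.5% of border macrophages at D3 had a UMI, and 95.4% and 98.9% of the UMIs lay in the 10% of cells with the most. In brain D3 the level was 54.8 CPM (43.6 to 68.0) in border macrophages with a *Lyve1* UMI and 409 (368 to 452) in those without. The summed markers of infiltrating macrophages were at 903 CPM in border macrophages of brain S3 and 1459 in brain D3, and at 752 and 993 in the dura mater. In an alternative chosen after the values were seen, cells with a UMI of *Arg1*, *Ly6c2*, *Chil3* or *Ccr2* were left out of both groups. *Fn1* was then at 7.95 CPM in brain D3 (8 UMIs; 3.43 to 15.7) and 5.88 in dura mater D3 (26 UMIs; 3.84 to 8.61), against 1.04 in brain S3 (1 UMI) and 3.22 in dura mater S3 (8 UMIs). The *Fn1* ratios, 2.93 in the brain and 0.87 in the dura mater, then rest on fewer than 50 UMIs and are not counted. *Thbs1* was then at 42.7 CPM in brain D3 against 33.3 in brain S3, and at 14.0 in dura mater D3 against 38.6 in dura mater S3, log2 ratios of 0.36 and −1.46. Graph clusters in place of the marker gate gave *Fn1* ratios of 2.17 and 0.98. *Ecm1* remained higher in these cells without those UMIs, at log2 ratios of 1.10 in the brain and 1.08 in the dura mater.

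With all border macrophages, *Fn1*, *Thbs1* (log2 2.78, 2.42 to 3.16) and *Ecm1* were past 2-fold in the brain, 3 of 5 genes with enough UMIs, against 2.99% of all genes. *Sparc* lay just under the line in the brain at 0.9996 (0.38 to 1.65), and its D3 level was not above T and B cells. In the dura mater *Fn1* and *Ecm1* were past it, 2 of 5, against 2.38% of all genes, and *Thbs1* was at 0.29 (0.05 to 0.54). This last ratio had no fixed direction, since besides −1.46 without cells with those UMIs it was −0.27 without a filter on cells, −0.26 with doublets kept and 1.12 without cells with a fibroblast, endothelial or mural marker UMI. Between border macrophages of brain S3 and dura mater S3 none of the 4 genes with enough UMIs was past 2-fold, where 5.82% of all genes were. Between Ly6C hi monocytes of the same libraries 1 of 5 was, *Vcan* at −1.07 (−1.33 to −0.81), lower in the brain, against 1.67% of all genes, and it stood at −0.91 to −0.98 under several alternatives. In monocytes 4 of 6 genes in the brain (*Tgfbi*, *Ecm1*, *Vcan* and *Sparc*, the last at 15.4 CPM and below T cells) and 2 of 5 in the dura mater (*Ecm1* and *Vcan*) were past 2-fold at D3, all higher. Over all genes these shares were 8.07% and 2.75%.

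Microglia of brain D3 carried *Fn1* at 159 CPM (151 to 167) against 6.08 in brain S3 (4.16 to 8.58), a log2 ratio of 4.71 (4.20 to 5.26). A UMI was found in 23.2% and 1.93% of microglia at median depths of 9877 and 9777 UMIs. The D3 level stood above T cells of that library, at 85.4 CPM (71.2 to 102). Without cells that had a UMI of *Arg1*, *Ly6c2*, *Chil3* or *Ccr2*, it was 104 CPM (95.3 to 113) against 1.58 in brain S3 (6 UMIs), and its interval then overlaps that of T cells. Of these UMIs 96.7% lay in the 10% of cells with the most, and 4.39% of the cells kept a UMI after thinning, against 4.64% of T cells. *Thbs1*, at 81.1 against 20.5 CPM (log2 1.98, 1.69 to 2.29), and *Ecm1*, at 22.8 against 1.90 CPM (log2 3.59, 2.68 to 4.67), were past 2-fold too, but their brain D3 levels were below T cells. These were 3 of 5 genes with enough UMIs, against 7.77% of all genes.

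In cDC2 of the brain 3 of 4 genes with enough UMIs were past 2-fold, against 3.78% of all genes. *Fn1* was at 33.7 CPM at S3 and 106 at D3, *Thbs1* at 4.21 and 69.6, and *Ecm1* at 2.11 and 19.8. After the T and B cell level of the library was subtracted, *Fn1* was at 0.23 and the other two were at or below that level and gave no ratio. In cDC2 of the dura mater *Fn1* was lower at D3, at 21.0 CPM (15.8 to 27.3) against 43.0 (36.2 to 50.8). This was the 1 of 3 genes past 2-fold, at −1.04 (−1.51 to −0.58), against 2.8% of all genes, and graph clusters gave 0.18.

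**Figure D4:**
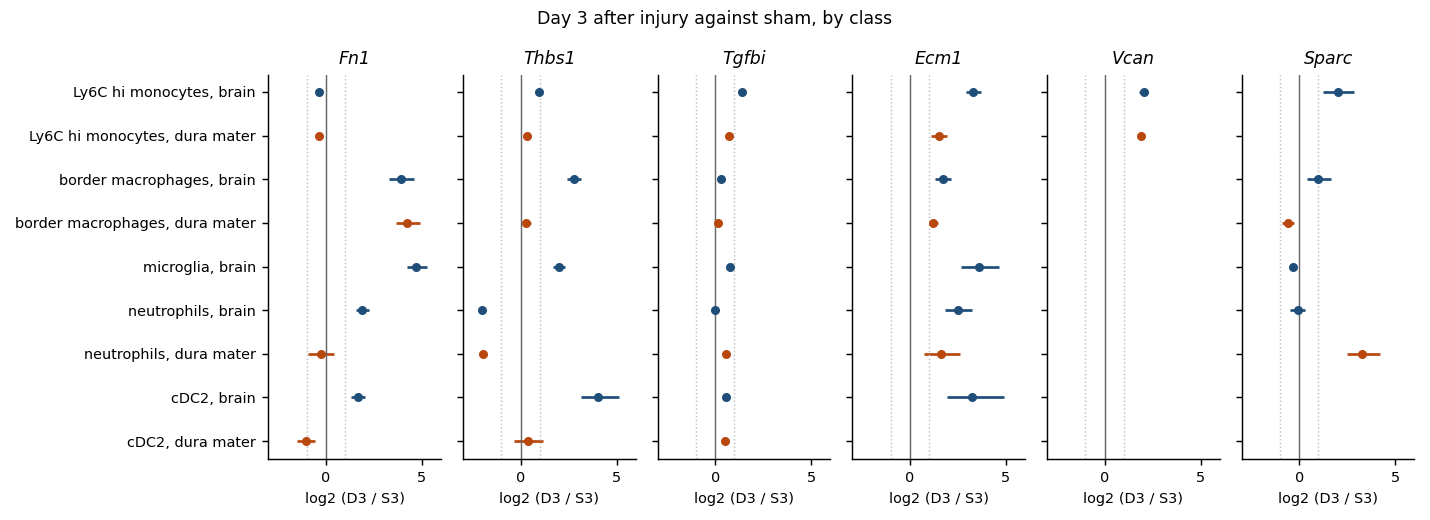
Log2 ratios of D3 over S3 (horizontal axis) with exact 95% intervals for genes with at least 50 UMIs in both libraries together, in blue for the brain and orange for the dura mater. Dotted lines mark 2-fold. *Ecm1* is to the right of 0 in all classes shown, though its D3 levels in microglia, neutrophils and brain cDC2 were below T cells. *Thbs1* is at −2.03 and −1.96 in neutrophils. *Fn1* is at −0.35 and −0.34 in monocytes and at 3.91 to 4.71 in border macrophages and microglia. A minority of those border macrophages and microglia held *Fn1* UMIs, and graph clusters gave 0.98 in dura mater border macrophages.

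Other matrix genes were taken from lists of the same biology in the comparison of infiltrating macrophages with border macrophages of brain S3. Of 22 integrins and other matrix receptors with enough UMIs, 9 were past 2-fold higher and 4 lower, with a list median of 0.44. Among the higher were *Sdc1*, a syndecan (log2 3.13), *Itga5*, the fibronectin receptor subunit (1.95), *Lrp1*, an endocytic receptor that also takes up thrombospondin 1 (1.83), and *Cd44*, the hyaluronan receptor (1.57). Lower were *Stab1*, a scavenger receptor (−2.73), *Sdc4* (−1.77), *Itgal* (−1.37) and *Itga4* (−1.24). Among genes of the TGF-β axis, *Ltbp3*, which encodes a latent TGF-β binding protein, was past 2-fold higher (1.55), and the receptor *Tgfbr2* (−1.85) and *Nrros*, which anchors latent TGF-β (−1.12), were past it lower.

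Of 3 other matricellular genes with enough UMIs, *Spp1*, which encodes osteopontin, was at 8071 against 46.4 CPM (log2 7.44, 7.13 to 7.78) and *Emilin2* at 2.15, while *Cyr61* was at 0.43 against 313 CPM (log2 −9.50). The list median was 2.15. Of 7 genes of collagen crosslinking 2 were higher, the transglutaminase *Tgm2* (5.28) and the prolyl hydroxylase subunit *P4ha2* (2.65), and 1 was lower, the transglutaminase *F13a1* (−1.35), with a median of 0.30. Of 6 genes of basement membrane and collagens *Lamc1* (1.49) and *Lgals3bp* (1.11) were higher and *Nid2* (−6.32) lower, with a median of 0.13. Of 4 proteoglycan and hyaluronan genes *Srgn*, the core protein of serglycin, was higher (1.53) and *Adamts1* (−2.59) and *Hyal1* (−1.22) lower, with a median of −0.90. The median over all genes was −0.23 there, as given above, and 29.6% of genes were past 2-fold in either direction. Markers of fibroblasts and of osteoblasts summed to under 1 CPM in infiltrating macrophages, and those of endothelial cells to 12.1 CPM against 145 in border macrophages of brain S3, where *Nid2* and *Cyr61* were higher. The immediate early list, a group to which *Cyr61* is also counted, summed to 8654 against 23788 CPM. The part of other cells in these levels was not tested.

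The genes with the most similar levels over 37 groups (a class in a library, at least 50 cells) were found by Pearson's r of log2(CPM + 1) among 10237 genes with at least 500 UMIs. For *Fn1* these were *Ms4a8a* (r = 0.90), *Nrg1* (0.88) and *Vcan* (0.81), and for *Vcan* they were *Nrg1* (0.91), *Dmkn* (0.88) and *Ms4a8a* (0.86). *Thbs1* was closest to *Prdx5* (0.93), *Pgd* (0.92) and *Msrb1* (0.91), and *Tgfbi* to *App* (0.95), *Tlr2* (0.94) and *Cd14* (0.93). *Ecm1* had weaker neighbours, *Vat1* (0.77), *Nceh1* (0.76) and *Fmn1* (0.72). *Sparc* was closest to *Ecscr* (0.90), *Slc2a5* (0.90) and *P2ry12* (0.88), of which the latter 2 are microglial markers of the gate. The groups share 4 libraries and their free RNA, so the coefficients describe these groups alone.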

How the data were processed

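Libraries of CD45+ cells were made by the authors with the 10× Chromium single-cell 3′ kit, and reads were mapped to mm10 with Cell Ranger 3.1.0 and normalized in Seurat 3.1.0, per the submitters' processing notes. The deposited values are the natural log (ln) of 1 plus UMIs of a gene divided by UMIs of its cell times 10000. Each was a whole multiple of the smallest value of its cell within 1e-06, so UMIs were recovered, on the premise that the smallest is 1 UMI. The files list between 17485 and 17862 genes a library, and an unlisted gene was taken as 0 UMIs. The libraries held 49003977, 54749012, 115154317 and 55887697 UMIs (brain S3, dura mater S3, brain D3, dura mater D3).

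Barcodes outside 1000 to 6000 detected genes, or above 7% of UMIs from mitochondrial genes, were dropped. Doublet scores followed Scrublet's scheme, and the highest 0.8% per 1000 barcodes (2.82% to 4.74%) were removed. A cell took the class of the marker list with the highest score (mean log value over markers, each divided by the 90th percentile of its nonzero values and capped at 1) if the score was at least 0.2, led by 0.1 and at least 3 markers, and 50% of the list, had a UMI. Graph clusters (2500 variable genes without the 6 genes, 30 components, 20 neighbours, Leiden at resolution 1) served as an alternative and gave the same name to 92.7% of 12366 cells named by both. The gate's thresholds and the names were set with marker levels in view.

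UMIs were summed over cells of a class and library. Intervals are exact Poisson for CPM, Clopper-Pearson for shares and conditional binomial for ratios, at 95%. They cover counting error only, and UMIs of 1 cell are not independent. A group at 0 UMIs enters at a floor of 3 UMIs. Fold changes were computed over all genes that reached 50 UMIs when the groups were summed, and comparisons that use brain S3 border macrophages or brain D3 infiltrating macrophages share those cells. Named genes are the 6 genes, the 3 most similar genes of each, and from each list of related genes at most 4 in each direction by size past 2-fold. Not every gene that meets this rule is reported here. The members and lists were chosen with earlier results of these data known. The intervals and the gate were run on UMIs simulated as independent counts, for the gate from the mean profile of each class. These runs cannot show how dependence of UMIs within a cell, or spread between cells of a class, affects the results. *Ear6*, *Ccn1*, *Ccn2*, *Ccn4* and *Lrrc33* are not listed under these symbols, and *Cyr61* and *Nrros*, other symbols of *Ccn1* and *Lrrc33*, were used. Python 3.11.15, numpy 2.4.6, scipy 1.17.1, pandas 2.3.3, scikit-learn 1.9.0, igraph 0.11.9, leidenalg 0.10.2 and matplotlib 3.10.9 were used. Alternatives were no filter on cells, doublets kept, clusters, a margin of 0.25, thinning to 2000 UMIs, subtraction of T and B cell CPM, centring, equal weight of cells, 2500 cells drawn per library, and leaving out cells with stromal or platelet UMIs.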

Additional observations from a re-analysis of the deposited data

Results flagged for a closer look

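*Fn1* in cDC2 had intervals on opposite sides of 0 in the 2 tissues, with log2 ratios of D3 over S3 of 1.65 in the brain and −1.04 in the dura mater, a difference of 2.69. *Sparc* in border macrophages had 0.9996 in the brain and −0.60 in the dura mater, a difference of 1.60. With 1 library per condition neither difference was tested. The brain levels of both genes at D3 were not above those of T and B cells of that library.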

How the results depend on the processing

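Of 168 counts of genes past 2-fold or above free RNA under the alternatives, 145 stayed within 1.5 times the value reported. Without a filter on cells 2 genes were past 2-fold in cDC2 of the dura mater (1 reported) and 1 between border macrophages of brain and dura mater at S3 (0 reported). Graph clusters gave 1 in border macrophages of the dura mater (2 reported), 2 in cDC2 of the dura mater, 1 between border macrophages at S3 and 0 between monocytes at S3 (1 reported). The wider margin gave 1 in cDC2 of the brain (3 reported) and 1 between border macrophages at S3. Thinning gave 1 in dura mater monocytes (2 reported), 1 in dura mater neutrophils (3 reported), 0 in cDC2 of both tissues and 0 between monocytes at S3. Subtraction of T and B cell CPM gave 0 in cDC2 of the brain, 1 between border macrophages and 2 between monocytes at S3. Centring, equal weight of cells and 2500 drawn cells each gave 0 between monocytes at S3, and equal weight and the platelet alternative 1 between border macrophages at S3. Leaving out cells with stromal UMIs gave 1 in dura mater neutrophils, and leaving out cells with *Arg1*, *Ly6c2*, *Chil3* or *Ccr2* UMIs, chosen after seeing the data, gave 1 in border macrophages of the brain (3 reported). The cause was not tested.

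Of 722 log2 ratios of single genes, 52 turned sign, 6 of them from a ratio past 2-fold. These 6 were *Fn1* in dura mater cDC2 with clusters (0.18), *Vcan* in infiltrating against border macrophages with the wider margin (−0.14) and without stromal UMIs (−0.11), a ratio reported on 1 UMI in border macrophages, *Sparc* in brain monocytes after thinning (−0.0064), *Fn1* in brain neutrophils with T and B cell CPM subtracted (−1.97) and *Sparc* in dura mater neutrophils without stromal UMIs (−1.04). Another 8 were under 2-fold as reported and past it with the other sign. These were *Thbs1* in dura mater border macrophages without *Arg1*, *Ly6c2*, *Chil3* or *Ccr2* UMIs (−1.46), *Thbs1* in dura mater cDC2 (−1.25) and *Fn1* in dura mater neutrophils (1.21) with clusters, *Sparc* in brain neutrophils without stromal UMIs (1.65) and in infiltrating macrophages against monocytes without a filter on cells (1.83), and with T and B cell CPM subtracted *Sparc* in brain border macrophages (−1.60), *Tgfbi* in brain neutrophils (−1.43) and *Ecm1* between monocytes at S3 (−1.42). No paired analysis was possible because each condition has 1 library and no test was made. Depth differs between classes, and genes under about 5 CPM rest on few UMIs.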
